A study of Mus musculus with 16 samples.

Results

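Ruxolitinib, an inhibitor of the Janus kinases JAK1 and JAK2, was given to mouse bone marrow-derived macrophages (BMDMs) either in medium conditioned by tumor cells (CM) or in plain DMEM, and the data below describe how far its effect on each gene depended on the medium. The drug effect in CM is the log2 difference between CM with ruxolitinib and CM, the drug effect in DMEM is the log2 difference between DMEM with ruxolitinib and DMEM, and the interaction is the first minus the second. A positive interaction means that the drug effect was higher in CM than in DMEM, and a negative one that it was lower. These 4 groups hold 11 of the 16 RNA-seq libraries of the study and were chosen by their labels alone: 2 libraries of DMEM, 3 of DMEM with ruxolitinib, 3 of CM and 3 of CM with ruxolitinib labelled 4 h.

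All 11 libraries came from macrophages of wild-type Balb/c mice aged 8 weeks. The medium was conditioned by serum-starved 4T1 cells, a mouse mammary carcinoma line. The macrophages were starved of serum for 2 h before CM was added, and in the CM arm 0.5 μM ruxolitinib was present from that step on. No label gives a dose or time for the drug in DMEM, and the study's methods give 4 h for the RNA of cells in CM. Nothing in the labels says whether libraries of a group came from separate mice or cultures, so that the p-values below measure only the spread between these libraries. Each library held 18449388 to 46215853 counted fragments (median 27192805), and mitochondrial genes took 0.785% to 1.05% of them. The 9 macrophage markers examined were above 0 in every group and summed to 34500 to 43200 CPM, the count scaled to a common library size, led by the lysozyme gene Lyz2. The 4 mast cell markers were at 0, and the epithelial, neutrophil and B cell markers summed to at most 1.45, 3.33 and 1.23 CPM in any library. These low sums differed between untreated CM and untreated DMEM. They were 0.774 to 1.45 against 0 to 0.118 CPM for epithelial, 1.72 to 3.33 against 0.286 to 0.296 for neutrophil and 0.122 to 0.267 against 1.15 to 1.21 for B cell markers. The T and NK cell markers summed to 4.81 to 10.7 CPM, most of it from Cd4, and the fibroblast markers to 10.2 to 19.7 CPM, with overlapping ranges in the 4 groups for both lists. The 6 dendritic cell markers, led by Zbtb46 in DMEM and by Ccr7 in CM, summed to 1.51 to 2.28 CPM in DMEM, 1.02 to 2.17 in DMEM with ruxolitinib, 4.45 to 7.01 in CM and 7.28 to 11.1 in CM with ruxolitinib.

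JAK kinases sit on the inner side of cytokine receptors and phosphorylate STAT transcription factors, which then move to the nucleus. Type I interferon acts through JAK1 and TYK2 on the STAT complex ISGF3, which holds STAT2 and IRF9 and binds interferon-stimulated response elements in the promoters of antiviral genes. GM-CSF and the other cytokines of its family act mainly through STAT5, and IL-6 acts through STAT3. Resting macrophages keep a low tonic expression of interferon-stimulated genes, and NF-κB, activated by IKK downstream of TNF and Toll-like receptors, drives many inflammatory genes without JAK.

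The promoters of 5 genes described below are printed first. Ifit1, Rsad2, Isg15 and Gbp5 carried an interferon response motif, and Gbp5 and Csf1 an NF-κB-type motif. These 5 do not stand for their groups, in which many promoters held no such motif, as the shares below show. The sequences are the 180 bases before the RefSeq start of each gene in GRCm38.p6, 5′ to 3′ on the gene's own strand. Capitals mark matches on either strand to the interferon-stimulated response element, searched as GAAA, any 2 bases and GAAA again, or to the κB element, searched as GGGA, any base and TTTCC. The positions are chr19:34640709-34640888 on the plus strand for Ifit1, chr12:26456453-26456632 on the minus strand for Rsad2, chr4:156200819-156200998 on the minus strand for Isg15, chr3:142496754-142496933 on the plus strand for Gbp5 and chr3:107760470-107760649 on the minus strand for Csf1.
Ifit1: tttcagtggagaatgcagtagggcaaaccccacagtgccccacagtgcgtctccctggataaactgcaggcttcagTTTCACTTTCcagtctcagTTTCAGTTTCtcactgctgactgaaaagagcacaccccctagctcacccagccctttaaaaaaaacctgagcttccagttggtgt
Rsad2: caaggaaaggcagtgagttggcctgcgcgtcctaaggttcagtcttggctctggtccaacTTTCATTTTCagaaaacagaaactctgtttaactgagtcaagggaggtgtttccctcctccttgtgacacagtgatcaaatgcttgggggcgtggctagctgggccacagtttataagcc
Isg15: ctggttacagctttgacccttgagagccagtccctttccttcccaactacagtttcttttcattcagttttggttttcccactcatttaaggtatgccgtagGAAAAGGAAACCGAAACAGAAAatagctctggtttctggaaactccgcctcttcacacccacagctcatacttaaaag
Gbp5: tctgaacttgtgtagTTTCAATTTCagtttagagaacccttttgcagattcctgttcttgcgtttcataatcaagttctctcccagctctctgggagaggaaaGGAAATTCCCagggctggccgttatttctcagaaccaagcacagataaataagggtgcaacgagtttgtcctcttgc
Csf1: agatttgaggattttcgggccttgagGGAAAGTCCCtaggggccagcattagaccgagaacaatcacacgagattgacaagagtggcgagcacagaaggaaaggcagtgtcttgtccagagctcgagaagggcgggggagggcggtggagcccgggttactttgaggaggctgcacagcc

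The Ifit1 promoter held the interferon motif at 104 and 85 bases before the start, the Rsad2 promoter at 120 bases, and the Isg15 promoter 3 overlapping copies at 78, 72 and 66 bases. The Gbp5 promoter held 1 interferon motif at 165 bases and 1 κB motif at 77 bases, and the Csf1 promoter 1 κB motif at 154 bases. Over the full RefSeq window, from 250 bases before to 50 after the start, a promoter was found for 9203 of the 12372 genes tested, and 360 of these (3.91%) held the interferon motif. A gene is said to be called, to rise or to fall where edgeR's quasi-likelihood test gave a Benjamini-Hochberg adjusted p under 0.05 and a log2 difference beyond 0.5, with the replicate number as a block. Among the 40 genes whose interaction was called higher and which fell in DMEM without rising in CM, 16 of the 31 with a promoter (51.6%) held it. Among the 113 genes that rose only in CM with a promoter it was 0.885%, and among the 124 that fell only in CM it was 4.03%. It was also in 26 of 63 promoters (41.3%) of genes that fell in both media with no call by the interaction. The motif was thus frequent in these genes and among the 40. In genes that changed only in CM its share was near or below that of all promoters. The κB motif was in 0.565% of all promoters, in 1 of 113 (0.885%) of those of genes that rose only in CM, in 2 of 51 (3.92%) of those higher by the interaction with neither effect called and in 1 of 18 (5.56%) of those that fell only in DMEM. A match to these letters is a description of the sequence and not of binding.

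The drug effect differed between the media for 444 of 12372 genes tested (3.59%), with 247 higher in CM (2% of the genes tested) and 197 lower (1.59%). Without the block the counts were 29 and 22, and all 51 of these genes were among the 444. Over all genes tested the median interaction was -0.00265 and the median SE was 0.144 on the log2 scale. For each replicate number with both libraries the drug effect was also taken directly from the log2 CPM, which gave 3 pairs in CM and 2 in DMEM, the third DMEM library with ruxolitinib having no untreated partner of its number. The CM pairs lay wholly above the DMEM pairs for 246 of the 247 genes called higher, against 19.1% of all genes, and wholly below for all 197 called lower, against 19.1%. These pairs come from the libraries that gave the calls, so that they describe the called genes and are no separate test.

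The drug acted mostly downwards in DMEM and in both directions in CM. In CM 305 genes rose (2.47%) and 440 fell (3.56%), and in DMEM 1 gene rose (0.00808%) and 154 fell (1.24%). The DMEM comparison rested on 2 untreated libraries, and 65 genes were higher there at an unadjusted p under 0.05 with a log2 effect over 0.5. Without the block 0 genes rose in DMEM and 120 fell, while 149 rose and 263 fell in CM. In fits without 1 library, the count that rose in DMEM ran from 0 to 20, the 20 being without DMEM replicate 2.

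The 444 genes were divided by where the drug effect itself was called. The group that fell only in CM held 153 genes, with a median drug effect of -0.83 in CM and 0.11 in DMEM. The group that rose only in CM held 144 genes, with medians of 0.74 and -0.15. A further 22 genes fell only in DMEM, with medians of 0.03 in CM and -0.99 in DMEM, and no gene rose only in DMEM. In both media 18 genes fell but less in CM, with medians of -1.15 in CM and -2.83 in DMEM, and 1 gene, Gm5431, fell more in CM. Timd4 and Rasgrf1 moved in opposite directions, and for 104 genes (61 higher and 43 lower by the interaction) neither drug effect was called alone. Of the genes called higher, 186 had a positive effect in CM and a negative one in DMEM, and of those called lower 159 had a negative effect in CM and a positive one in DMEM.

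**Figure D1:**
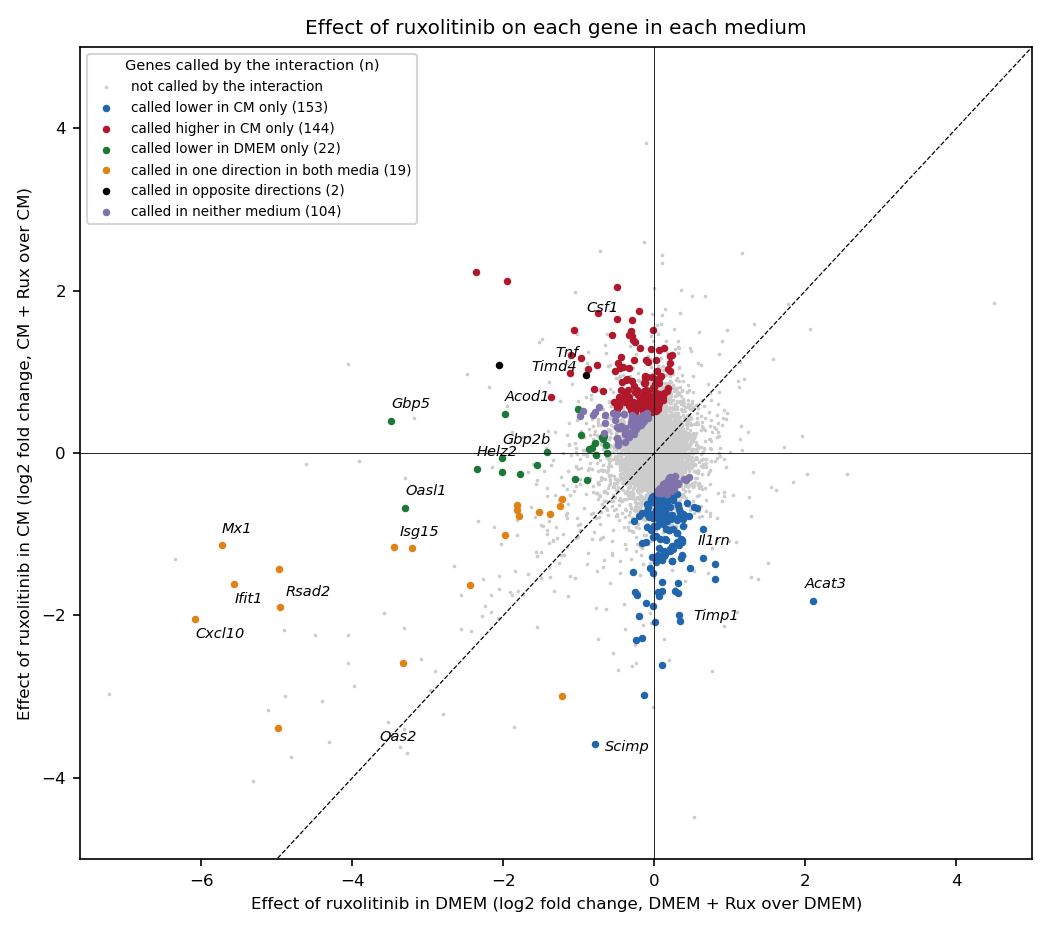
Drug effect of ruxolitinib on each tested gene in DMEM (x axis) and in CM (y axis), both in log2 from the fit, with the 444 genes called by the interaction coloured by the medium in which the drug effect was called and the dashed diagonal marking equal effects. The 153 genes that fell only in CM lie below the diagonal, with a median of 0.11 on the x axis. The 144 that rose only in CM lie above it. The 18 that fell in both but less in CM lie to the left, with a median of -2.83 on the x axis.

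How firmly these calls stood varied by group. Each of the 11 libraries was left out in turn, and 83 of the 247 genes called higher and 88 of the 197 called lower were called in all 11 of these fits. The untreated DMEM group falls to a single library when either of its 2 is left out, and without DMEM replicate 1 122 of the 247 and 124 of the 197 were still called. By group, the calls that held without it were 111 of 153 for genes that fell only in CM, 81 of 144 for those that rose only in CM, 11 of 22 for those that fell only in DMEM, 14 of 18 for those that fell in both but less in CM, and 15 of the 61 higher by the interaction with neither effect called. The count of genes called higher ran from 140 without CM replicate 1 to 333 without replicate 2 of DMEM with ruxolitinib, and the count called lower from 133 to 326 under the same omissions.

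Interferon-stimulated genes fell in both media, and a part of them fell much further in DMEM. Of 49 tested genes of the list of ISGF3 targets, 46 fell in DMEM and 42 in CM, and none rose in either medium. Over all genes tested 1.24% fell in DMEM and 3.56% in CM. The interaction called 13 higher (26.5%) and 0 lower, against 2% and 1.59% of all genes tested. The median drug effect over the list was -2.07 in DMEM and -1.53 in CM, and the median interaction was 0.42, against medians near 0 over all genes (0.0108 in DMEM, 0.00721 in CM). By pair, the list's median was -1.79 and -2.07 in DMEM and -1.21, -1.58 and -1.41 in CM, so that the DMEM and CM pairs did not overlap. The 2 untreated DMEM libraries differed on this list, replicate 1 being above replicate 2 for 1 of the 49 genes (2.04%, against 48.8% of all genes), with a median difference of -0.50 in log2 CPM. Without the block 3 genes of the list were called, and without DMEM replicate 1 11 were. Bulk RNA cannot tell apart fewer cells expressing a gene and less of its RNA per cell, here and for every gene below.

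Called genes were ranked where they averaged at least 1 CPM in the 11 libraries and at least 5 CPM in the highest group. Among them Mx1, a gene of the dynamin-like GTPase family, had the largest positive interaction. It stood at 24.0 and 39.9 CPM in DMEM and at 0.462, 0.603 and 0.712 with ruxolitinib, and at 5.62, 14.9 and 7.45 CPM in CM and 5.02, 3.78 and 3.41 with ruxolitinib. The DMEM groups lay far apart, while the CM groups were separated by a small gap only. The drug effect was -5.73 ± 0.37 (SE) in DMEM and -1.13 ± 0.28 in CM, and the interaction was 4.6 ± 0.49 (adjusted p = 0.00051). Mx1 was called in every fit without 1 library and also without the block (4.51, adjusted p = 0.0029). The gene lies at chr16:97447035-97462907 in GRCm38 and had no entry in the promoter table.

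Ifit1, which binds viral RNA lacking a proper cap, stood at 40.3 and 63.4 CPM in DMEM and at 1.15, 1.05 and 1.13 with ruxolitinib. In CM it stood at 8.90, 32.1 and 17.1 CPM, and with ruxolitinib at 3.56, 12.5 and 3.10. The highest value of each CM group was that of replicate 2, and the CM groups overlapped across numbers but not within them. Ruxolitinib changed it by -5.56 ± 0.37 in DMEM and -1.62 ± 0.27 in CM, with an interaction of 3.95 ± 0.48 (adjusted p = 0.00085, and 0.0502 without the block). Its near copy Ifit1bl2 had an interaction of 3.54, and reads that fit both copies were not counted, so that the levels of the 2 genes are uncertain.

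Rsad2, which encodes viperin, stood at 60.1 and 84.4 CPM in DMEM and at 2.08, 1.72 and 3.27 with ruxolitinib. In CM it stood at 19.2, 85.6 and 35.8 CPM, and with ruxolitinib at 7.09, 24.5 and 5.60. Replicate 2 was again the highest of each CM group, and the drug lowered the level in each of the 5 pairs. The interaction was 3.07 ± 0.59 (adjusted p = 0.0099), and without the block it was 3.05 with an adjusted p of 0.16.

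Isg15, the ubiquitin-like modifier whose promoter carried 3 overlapping motifs, stood at 17.7 and 27.1 CPM in DMEM and at 1.94, 1.79 and 2.14 with ruxolitinib. In CM it stood at 21.2, 66.6 and 26.9 CPM, and with ruxolitinib at 10, 32.9 and 9.47. The level with the drug in CM was thus above that in DMEM with the drug in each library. The interaction was 2.30 ± 0.42 (adjusted p = 0.0076, and 0.27 without the block). On the linear CPM scale the direction turned, by a difference of -0.33 CPM.

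Cxcl10, a chemokine for activated T cells, stood at 17.0 and 15.8 CPM in DMEM, at 0.185, 0.268 and 0.389 with ruxolitinib, at 2.28, 14.6 and 4.20 in CM and at 0.432, 3.49 and 1.07 in CM with ruxolitinib. Its interaction was 4.04 ± 0.87 (adjusted p = 0.018). The call was lost without CM replicate 1, without replicate 2 of CM with ruxolitinib and without replicate 2 of DMEM with ruxolitinib, and over all omissions the value ran from 2.91 to 5.46. Oasl1, an inhibitor of Irf7 translation, had an interaction of 2.63 ± 0.63 (adjusted p = 0.032) and lost its call in 6 of the 11 omissions.

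Other antiviral genes fell by amounts that differed less between the media. By the rule that both drug effects were called in one direction and the 95% interval of the interaction lay within 1 of 0, there were 54 such genes, 53 of them lower with the drug, and the interaction still called 2 of them, Ifi35 at 0.63 and Parp9 at 0.59. Oas2, an oligoadenylate synthetase that activates RNase L, stood at 84.6 and 120 CPM in DMEM and at 8.59, 9.40 and 7.64 with ruxolitinib, and at 68.8, 81.7 and 78.3 CPM in CM and 6.77, 9.33 and 7.02 with ruxolitinib. The levels with the drug overlapped between the media, and in each medium the treated libraries lay far below the untreated ones. The drug effect was -3.53 in DMEM and -3.31 in CM, and the interaction was 0.22 ± 0.14 (95% interval -0.09 to 0.52, adjusted p = 0.56).

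The other genes named by that rule were Ifi44l, Oas3, Oasl2 and Xaf1. Ifi44l had drug effects of -3.40 in CM and -3.32 in DMEM, and an interaction of -0.08 with a 95% interval of -0.86 to 0.69. Oas3, a second oligoadenylate synthetase, had effects of -2.91 and -2.97, and an interval of -0.40 to 0.52. Oasl2 had effects of -2.54 and -3.09, with an interaction of 0.55 that was not called (adjusted p = 0.16, and 0.037 to 0.82 over the alternatives) although its 95% interval of 0.13 to 0.97 left out 0. Xaf1, a pro-apoptotic interferon-stimulated gene, had effects of -2.68 and -2.90. Usp18, the protease that removes ISG15 from proteins and dampens interferon receptor signaling, had the lowest interaction of the list, -0.42 ± 0.45, which was not called (adjusted p = 0.77).

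Stat2 and Irf9, which encode parts of ISGF3, fell in both media and were not called by the interaction. Stat2 fell by 1.40 in DMEM and by 0.84 in CM, with an interaction of 0.56 (adjusted p = 0.15). Irf9 fell by 1.84 in DMEM and by 1.46 in CM, with an interaction of 0.39 that passed the test but lay under the log2 limit of 0.5 (adjusted p = 0.043). Irf7, which amplifies interferon production, had an interaction of -0.01. These 3 genes were chosen after their values were seen.

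Some guanylate-binding protein genes, which encode interferon gamma-inducible GTPases that attack vacuoles of intracellular pathogens, fell with the drug in DMEM and had no call in CM. Of 26 tested genes of the list of interferon gamma targets, 15 fell in DMEM and 15 in CM, against 1.24% and 3.56% of all genes. The interaction called 6 higher (23.1%) and 1 lower (3.85%), against 2% and 1.59% of all genes tested. The list's median drug effect was -1.38 in DMEM and -0.73 in CM. Gbp5 stood at 11.7 and 6.79 CPM in DMEM and at 0.785, 0.514 and 1.62 with ruxolitinib, and at 153, 136 and 144 CPM in CM and 193, 166 and 220 with ruxolitinib. All 6 CM libraries thus lay above all 5 DMEM libraries, and within CM the 3 libraries with the drug were the highest. The drug effect was -3.48 ± 0.39 in DMEM and 0.40 ± 0.20 in CM (adjusted p = 0.25), with an interaction of 3.88 ± 0.44 (adjusted p = 0.00055, and 0.012 without the block).

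Gbp2b stood at 27.0 and 20.9 CPM in DMEM and at 5.08, 5.56 and 9.10 with ruxolitinib, while CM without and with the drug overlapped at 113, 70.1 and 108 against 108, 59.5 and 117 CPM. Its interaction was 1.96 ± 0.22 (adjusted p = 0.00055, and 0.16 without the block). Gbp2, Gbp3 and Gbp7, chosen after their values were seen, had interactions of 1.41, 1.79 and 1.18, and of these 3 only Gbp7 also fell in CM, by 0.64. Gbp4 and Gbp9, also chosen after their values were seen, fell in both media, by 1.97 and 1.26 in CM, and neither was called by the interaction. Gbp2, Gbp3, Gbp5 and Gbp7 were called in every fit without 1 library, and so was Gbp2b. At the other end of the interferon gamma list stood Fcgr1, the high-affinity IgG receptor, with an interaction of -1.02 that was not called (adjusted p = 0.060). The Gbp genes resemble each other, and reads shared between them were not counted.

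Helz2, a helicase that serves as a nuclear receptor coactivator, followed the same course. It stood at 102 and 116 CPM in DMEM and at 26.1, 18.5 and 15.8 with ruxolitinib, and at 288, 460 and 297 CPM in CM and 271, 406 and 238 with ruxolitinib. The CM groups overlapped and the DMEM groups did not. Ruxolitinib changed it by -2.35 in DMEM and -0.20 in CM (adjusted p = 0.60), with an interaction of 2.16 ± 0.28 (adjusted p = 0.0011, and 0.026 without the block).

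Socs1 and Cd40 were low in DMEM and high in CM whatever the drug. Socs1, a feedback inhibitor of JAK, stood at 0.887 and 0.941 CPM in DMEM and at 0.185, 0.290 and 0.291 with ruxolitinib, and at 18.9, 18.2 and 17.8 CPM in CM and 14.6, 16.5 and 14.4 with ruxolitinib. Its drug effect was -1.78 in DMEM and -0.26 in CM (adjusted p = 0.11), and the interaction was 1.51 ± 0.29 (adjusted p = 0.0096). On the linear CPM scale the direction turned, the drop of Socs1 in CM being larger than that in DMEM (difference -2.43 CPM). Cd40, a costimulatory receptor of the TNF receptor family, had effects of -1.42 in DMEM and 0.01 in CM, and an interaction of 1.42 ± 0.27 (adjusted p = 0.0092). Both calls were lost without DMEM replicate 1, at 1.47 (adjusted p = 0.062) for Socs1 and 0.94 (adjusted p = 0.078) for Cd40.

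Of the 154 genes that fell in DMEM, 97 also fell in CM, 55 had no call in CM, and the remaining 2, Timd4 and Rasgrf1, rose there. Over all genes tested 3.56% fell in CM. The interaction called 43 of the 154, against 3.59% of all genes tested. The DMEM drug effect that chose the 154 is also a part of the interaction, so that a raised share follows in part from the choice.

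**Figure D2:**
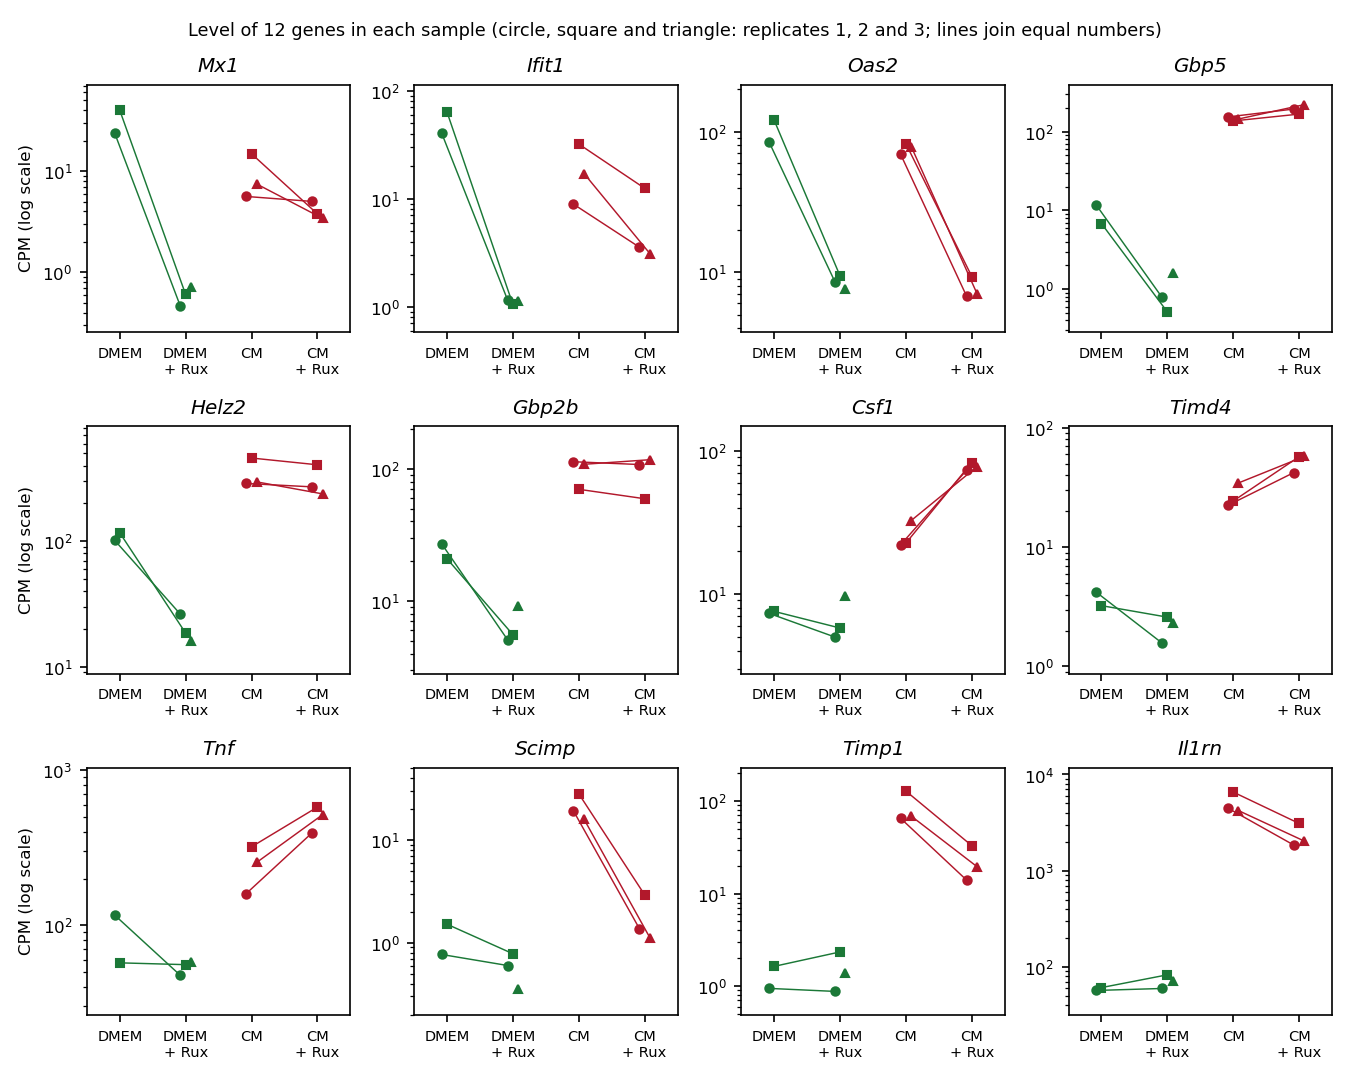
Level in CPM (log axis) of 12 genes in each of the 11 libraries, by group (DMEM, DMEM with ruxolitinib, CM, CM with ruxolitinib), with lines joining libraries of the same replicate number. Mx1 and Ifit1 drop steeply in DMEM and less in CM, Oas2 drops alike in both, and Gbp5 drops only in DMEM. Csf1 rises only in CM (73.2 to 82.8 CPM with the drug), and Timp1 and Il1rn fall only in CM. Scimp falls in CM and is also lower in both DMEM pairs (log2 -0.21 and -0.65), where it was not called.

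The genes that fell only in CM had a higher median level in untreated CM than in the other groups. The median was 27.6 CPM in DMEM, 30.7 in DMEM with ruxolitinib, 64.9 in CM and 31.8 in CM with ruxolitinib. These genes were chosen by their fall in CM, which sets untreated CM above CM with the drug, so that this order is no separate result. Among the list of STAT5 targets, 8 of 23 tested genes fell and 2 rose in CM, against 3.56% and 2.47% of all genes tested. None of the list was called in DMEM (1 lower and 1 higher at an unadjusted p under 0.05 by edgeR). The median drug effect of the list's genes was -0.48 in CM and 0.00 in DMEM. The interaction called 2 of them lower (8.7%), Bcl2l1 and Il4ra, and 1 higher (4.35%), Pim2, against 1.59% and 2% of all genes tested. The list's median interaction was -0.38, and it was -0.80 without DMEM replicate 1 and -0.19 without DMEM replicate 2. Among the 27 tested STAT3 targets, 9 fell in CM and 1 in DMEM, against 3.56% and 1.24% of all genes tested. At an unadjusted p under 0.05 by edgeR, 8 of these targets were lower in DMEM. The median drug effects of the STAT3 list were -0.33 in CM and -0.23 in DMEM. The interaction called 3 lower (11.1%), Timp1, Il1rn and Il4ra, and none higher, against 1.59% and 2% of all genes tested. The median interaction of that list was -0.18, and it was -0.40 without DMEM replicate 1 and 0.03 without DMEM replicate 2.

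Scimp, a transmembrane adaptor of Toll-like receptor signaling, had one of the largest negative interactions. It stood at 0.768 and 1.51 CPM in DMEM and at 0.600, 0.782 and 0.356 with ruxolitinib, and at 19.2, 28.2 and 16 CPM in CM and 1.38, 2.93 and 1.12 with ruxolitinib. In CM every untreated library lay above every treated one, and the treated level came close to that of DMEM. The drug effect was -3.59 ± 0.18 in CM and -0.79 ± 0.32 in DMEM (adjusted p = 0.49), with an interaction of -2.80 ± 0.38 (adjusted p = 0.0014, and 0.21 without the block).

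Timp1, an inhibitor of matrix metalloproteinases, stood at 0.946 and 1.64 CPM in DMEM and at 0.877, 2.34 and 1.39 with ruxolitinib, and at 65.1, 128 and 68.9 CPM in CM and 14.0, 33.0 and 19.5 with ruxolitinib. The DMEM groups overlapped and the CM groups did not. The drug effect in CM was -2.0 ± 0.12 and the interaction -2.32 ± 0.28 (adjusted p = 0.00091, and 0.28 without the block). Il1rn, which encodes the antagonist of the IL-1 receptor, stood at 56.9 and 60.9 CPM in DMEM and at 59.7, 82.7 and 71.1 with ruxolitinib, and at 4467, 6563 and 4213 CPM in CM and 1846, 3099 and 2030 with ruxolitinib. Even with the drug it was thus far above its level in DMEM. The interaction was -1.45 ± 0.16 (adjusted p = 0.00051, and 0.081 without the block).

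Il4ra, the alpha chain of the IL-4 and IL-13 receptors, is on the lists of STAT5 targets, STAT3 targets and pathway components. It stood at 40.2 and 51.9 CPM in DMEM and at 36.5, 49.5 and 51.7 with ruxolitinib, and at 871, 1220 and 800 CPM in CM and 341, 590 and 367 with ruxolitinib. The DMEM groups overlapped, whereas in CM the lowest untreated library lay above the highest treated one. The interaction was -1.23 ± 0.18 (adjusted p = 0.0024, and 0.26 without the block). Bcl2l1, which encodes the survival protein BCL-XL, had a drug effect of -0.76 in CM and 0.00 in DMEM, with an interaction of -0.77 ± 0.13 (adjusted p = 0.0047). It stood at 148, 186 and 154 CPM in CM and at 75.6, 116 and 99.3 with ruxolitinib.

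Plekhf1, a phosphoinositide-binding protein of endosomes and lysosomes, stood at 1.48 and 1.72 CPM in DMEM and at 1.94, 1.79 and 2.1 with ruxolitinib, and at 26.6, 34.6 and 22.1 CPM in CM and 5.69, 9.16 and 4.89 with ruxolitinib. The interaction was -2.42 ± 0.33 (adjusted p = 0.0016, and 0.033 without the block). Zfp618, a zinc finger protein, had a drug effect of -2.09 ± 0.17 in CM and 0.01 in DMEM, with an interaction of -2.09 ± 0.27 (adjusted p = 0.0011, and 0.012 without the block). Gpr35, a G protein-coupled receptor of leukocytes, stood at 0.739 and 0.860 CPM in DMEM and at 1.52, 1.30 and 1.30 with ruxolitinib, and at 56.4, 85.5 and 50.3 CPM in CM and 18.4, 36.1 and 21.3 with ruxolitinib. Its level with the drug was higher in each DMEM pair and lower in each CM pair, with an interaction of -2.17 ± 0.33 (adjusted p = 0.0025).

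Mertk, the receptor tyrosine kinase by which macrophages take up dying cells, was also lower in untreated CM than in untreated DMEM, by 0.57 on the log2 scale. It stood at 23.5 and 27.3 CPM in DMEM and at 31.0, 26.8 and 32.0 with ruxolitinib, and at 12.9, 23.6 and 14.5 CPM in CM and 4.72, 6.25 and 4.58 with ruxolitinib. The interaction was -1.97 ± 0.31 (adjusted p = 0.0036, and 0.033 without the block), and it was the single marker called among the 9 of macrophages. Mrc1, the mannose receptor of alternatively activated macrophages, had a drug effect of -1.32 in CM and 0.10 in DMEM, with an interaction of -1.42 ± 0.24 (adjusted p = 0.0055).

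Irf8, Il6ra and Jak3 fell only in CM as well, and were chosen after their values were seen. Irf8, a transcription factor of the monocyte lineage, stood at 187 and 195 CPM in DMEM and at 204, 197 and 204 with ruxolitinib, and at 267, 297 and 282 CPM in CM and 137, 143 and 174 with ruxolitinib. It was the single member of the interferon gamma list that the interaction called lower, at -0.94 ± 0.12 (adjusted p = 0.0011), and its level with the drug was below DMEM in each CM library. Il6ra, the IL-6 receptor chain, had an interaction of -1.37 ± 0.16 (adjusted p = 0.00069), and Jak3, the kinase of common gamma chain receptors, one of -0.60 ± 0.11 (adjusted p = 0.0091).

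Among 52 tested components of the JAK-STAT pathway, 12 fell in CM and 3 in DMEM, against 3.56% and 1.24% of all genes tested. None of the components rose. The interaction called 5 lower (9.62%), Csf3r, Il4ra, Il6ra, Jak3 and Ptpn1, and 1 higher (1.92%), Socs1, against 1.59% and 2% of all genes. Of these 6 genes, Il4ra, Il6ra and Jak3 were called in every fit without 1 library. The 15 tested genes of alternative activation gave 2 called lower by the interaction (13.3%), Il4ra and Mrc1, and 1 higher (6.67%), Ccl22.

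In some genes with large negative interactions the DMEM level was low, and the SE of the drug effect in DMEM was large: 0.82 for Acat3 and 0.66 for Pgf, against a median of 0.107 over all genes. Acat3, an acetyl-CoA acetyltransferase, was at or under 3 counts in each untreated DMEM library, and its level in CM was at least 85.2-fold higher. It stood at 13.1, 10.8 and 7.45 CPM in CM and at 3.72, 3.03 and 2.14 with ruxolitinib, and its interaction of -3.92 (adjusted p = 0.015) ran from -7.50 to -3.28 over the fits without 1 library and lost its call without replicate 1 of DMEM with ruxolitinib. Pgf, a growth factor of the VEGF family, stood at 0.185 to 0.380 CPM in all 5 DMEM libraries, and at 13.2, 31.2 and 19.9 CPM in CM and 2.05, 4.72 and 1.32 with ruxolitinib. Its interaction of -2.85 ± 0.69 (adjusted p = 0.034) lost its call in 6 of the 11 omissions. Nid2, a basement membrane protein, had an interaction of -2.70 ± 0.50 (adjusted p = 0.0079).

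The genes that rose only in CM had similar median levels in the other groups. The median was 32.1 CPM in DMEM, 29.2 in DMEM with ruxolitinib, 29.7 in CM and 55.0 in CM with ruxolitinib. The rise in CM by which these genes were chosen likewise sets the order of the CM values. Csf1, the growth factor that macrophages themselves need to survive, stood at 7.30 and 7.53 CPM in DMEM and at 4.99, 5.76 and 9.62 with ruxolitinib, and at 22, 22.6 and 32.5 CPM in CM and 73.2, 82.8 and 77.5 with ruxolitinib. Each CM library with the drug was above each without it, and the DMEM groups overlapped. In log2 the drug effect was 1.63 ± 0.12 in CM and -0.30 ± 0.17 in DMEM (adjusted p = 0.69), with an interaction of 1.93 ± 0.21 (adjusted p = 0.00051). The call held in each omission, from 1.82 to 2.16, and without the block (1.72, adjusted p = 0.046).

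Timd4, a phosphatidylserine receptor of resident macrophages, was called in opposite directions. It stood at 4.20 and 3.23 CPM in DMEM and at 1.57, 2.59 and 2.33 with ruxolitinib, and at 22.4, 24.4 and 34.5 CPM in CM and 42.2, 57.3 and 57.6 with ruxolitinib. Neither pair of groups overlapped. In log2 the drug effect was 0.96 ± 0.12 in CM and -0.91 ± 0.21 in DMEM (adjusted p = 0.048), with an interaction of 1.87 ± 0.24 (adjusted p = 0.0011, and 0.047 without the block).

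Cx3cr1, the receptor for fractalkine, and Cx3cl1, which encodes fractalkine, both rose only in CM. They were chosen after their values were seen. Cx3cr1 stood at 134 and 112 CPM in DMEM and at 112, 119 and 46.7 with ruxolitinib, and at 46.8, 54.2 and 21.7 CPM in CM and 163, 144 and 92.7 with ruxolitinib. With the drug in CM, replicates 1 and 2 lay above both untreated DMEM libraries, and replicate 3 was the lowest of each group that held it. The interaction was 1.95 ± 0.21 (adjusted p = 0.00051) and was called in each omission. Cx3cl1 stood at 3.31 and 1.64 CPM in DMEM and at 1.8, 1.85 and 2.53 with ruxolitinib, and at 8.12, 13.3 and 14.5 CPM in CM and 26.5, 32.4 and 38.8 with ruxolitinib, with an interaction of 2.01 ± 0.37 (adjusted p = 0.0084) that was lost without DMEM replicate 1.

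Pim2, a survival kinase on the STAT5 list, went against the direction of that list. It stood at 12, 11.8 and 10.9 CPM in CM and at 22.6, 17.8 and 18.3 with ruxolitinib, and at 8.63 and 7.29 CPM in DMEM and 5.77, 7.41 and 6.35 with ruxolitinib. The interaction was 1.01 ± 0.18 (adjusted p = 0.0073, and 0.026 without the block), and without DMEM replicate 1 it was 0.91 (adjusted p = 0.052). Treml4, a receptor of the TREM family, Mycl, a MYC family transcription factor, and the unnamed gene model Gm19026 had interactions of 2.15, 2.14 and 2.47. All 3 rose in CM, by 1.66, 1.17 and 1.72, and lost the interaction call without DMEM replicate 1, at 1.70, 1.84 and 2.57.

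**Figure D3:**
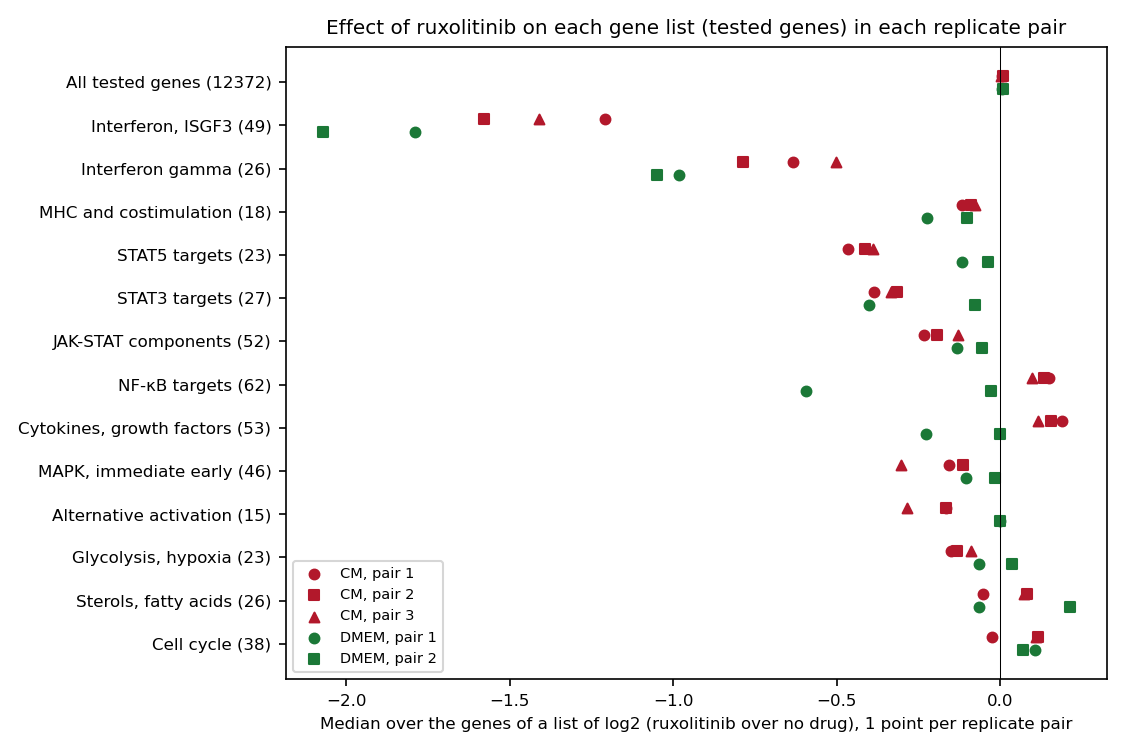
Median log2 drug effect of 13 gene lists and of all genes tested in each pair of libraries with the same replicate number, 3 pairs in CM and 2 in DMEM. The ISGF3 list lies at -1.79 and -2.07 in DMEM and between -1.58 and -1.21 in CM, and the NF-κB list lies at 0.10 to 0.15 in CM and at -0.60 and -0.03 in DMEM, where the 2 pairs differ.

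NF-κB targets were shifted towards a higher drug effect in CM, but the size of the shift depended on one untreated library. Of 62 tested genes of the list, 11 rose and 6 fell in CM, against 2.47% and 3.56% of all genes tested. In DMEM 0 rose and 1 (Cd40) fell (0 and 17 at an unadjusted p under 0.05 by edgeR). Over all genes tested 0.00808% rose and 1.24% fell in DMEM. The interaction called 14 higher (22.6%) and 1 lower (1.61%), against 2% and 1.59% of all genes tested. The median drug effect of the list was 0.12 in CM and -0.31 in DMEM, and the median interaction was 0.61. By pair the median was 0.15, 0.13 and 0.10 in CM, and -0.60 and -0.03 in DMEM. DMEM replicate 1 was above DMEM replicate 2 for 50 of the 62 genes (80.6%), against 48.8% of all genes tested, with a median difference of 0.45 in log2 CPM. Without DMEM replicate 1 the median interaction was 0.08 and 5 genes were called, and without DMEM replicate 2 the median was 0.95. Without the block 1 gene of the list was called, and whether DMEM replicate 1 or replicate 2 is nearer to the untreated state cannot be told apart with 2 libraries. The summed dendritic markers given above were also highest in CM with ruxolitinib. That sum was carried by Ccr7, at 2.28, 5.47 and 3.01 CPM in CM and 5.93, 8.82 and 5.04 with ruxolitinib, while Flt3, Xcr1, Siglech and Clec9a were at or under 0.407 CPM in every library. The part of these markers in the result was not tested.

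The 5 genes of the NF-κB list called in each omission were Csf1, Icam1, Tnfaip2 and Rel, which were higher, and Map3k8, which was lower. Csf1 is described above. Icam1, an adhesion molecule for leukocyte integrins, stood at 312 and 179 CPM in DMEM and at 150, 181 and 208 with ruxolitinib, and at 532, 482 and 631 CPM in CM and 766, 664 and 876 with ruxolitinib. The 2 DMEM libraries lay far apart, and the CM groups did not overlap. The interaction was 1.04 ± 0.21 (adjusted p = 0.012). Tnfaip2, a TNF-induced gene of the exocyst family, rose by 0.74 in CM and had an interaction of 1.13 ± 0.18 (adjusted p = 0.0039).

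Rel, which encodes the NF-κB subunit c-Rel, stood at 98.0 and 79.7 CPM in DMEM and at 81.8, 76.5 and 74.9 with ruxolitinib, and at 250, 221 and 191 CPM in CM and 352, 305 and 270 with ruxolitinib. Its interaction was 0.60 ± 0.10 (adjusted p = 0.0053), and its effect in CM of 0.49 lay just under the log2 limit. Map3k8, a kinase that links NF-κB1 to ERK, stood at 77.0, 98.3 and 75.3 CPM in CM and at 50.3, 63.1 and 47.0 with ruxolitinib, with an interaction of -0.72 ± 0.13 (adjusted p = 0.0069). Icam1, Tnfaip2, Rel and Map3k8 were chosen because their calls held, after their values were seen.

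Tnf, which encodes the cytokine TNFα, stood at 117 and 57.3 CPM in DMEM and at 47.6, 55.8 and 58.4 with ruxolitinib, and at 160, 320 and 255 CPM in CM and 395, 577 and 517 with ruxolitinib. Its drug effect was 1.03 ± 0.30 in CM and -0.88 ± 0.36 in DMEM (adjusted p = 0.49), and the interaction was 1.91 ± 0.47 (adjusted p = 0.035). DMEM replicate 2 lay within the range of the treated DMEM libraries, and replicate 1 above it. Without replicate 1 the interaction was 0.93 (adjusted p = 0.22), and the call was lost in 8 of the 11 omissions.

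Ccl22, a chemokine for regulatory T cells, stood at 1.18 and 0.737 CPM in DMEM and at 0.416, 0.491 and 0.745 with ruxolitinib, and at 92.1, 84.6 and 162 CPM in CM and 184, 204 and 268 with ruxolitinib. It rose by 0.99 in CM, and its interaction of 2.1 ± 0.52 (adjusted p = 0.039) was lost in 8 of the 11 omissions and was 1.5 (adjusted p = 0.40) without DMEM replicate 1.

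Acod1, which makes itaconate, and Clec4e, the receptor Mincle for mycobacterial glycolipid, showed the same dependence. Acod1 stood at 203 and 43.0 CPM in DMEM and at 32.6, 23.3 and 31.7 with ruxolitinib, and at 2318, 3413 and 2227 CPM in CM and 3556, 4420 and 3208 with ruxolitinib. Its interaction was 2.47 ± 0.58 (adjusted p = 0.027) and 0.93 (adjusted p = 0.13) without DMEM replicate 1. The call of Acod1 was lost in 6 of the 11 omissions. That of Clec4e was lost in 9, among them the omission of each CM library and of each library of CM with ruxolitinib. Clec4e stood at 483 CPM in DMEM replicate 1 and at 185 in replicate 2, which lay below the 3 treated libraries at 187 to 201. Its interaction of 1.30 ± 0.32 was 0.48 without DMEM replicate 1. Irf1, a transcription factor shared by the interferon gamma and NF-κB programs, had an interaction of 1.30 ± 0.25 (adjusted p = 0.011), and 1.03 (adjusted p = 0.071) without that library.

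**Figure D4:**
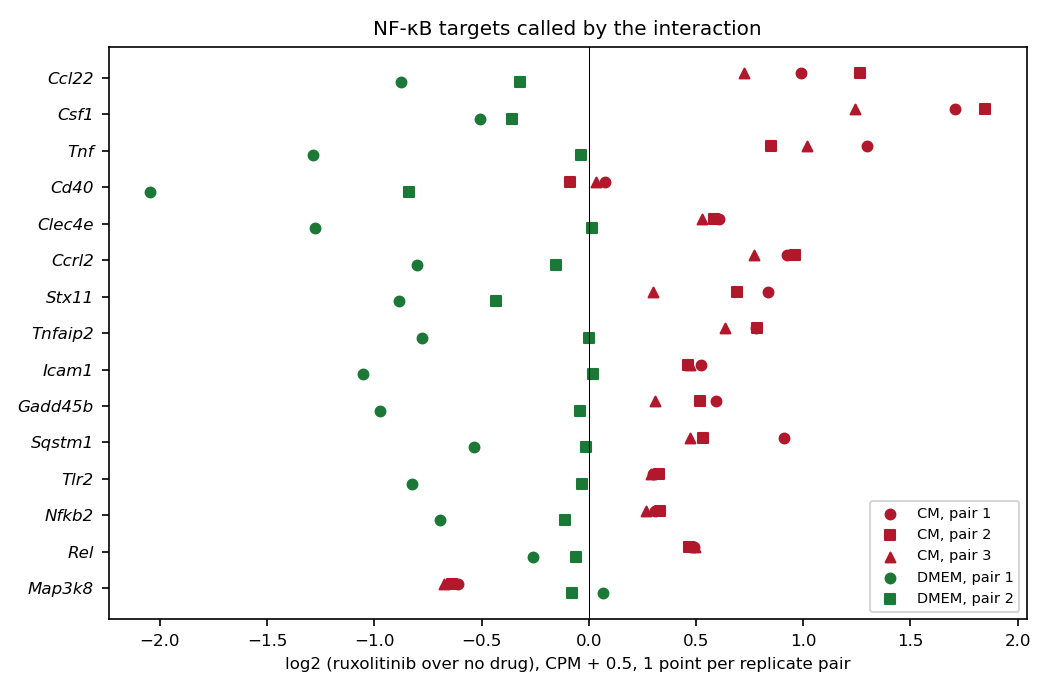
Log2 drug effect in each pair of libraries (3 in CM, 2 in DMEM) for the 15 genes of the NF-κB list called by the interaction. Map3k8 is the single gene with its CM pairs below its DMEM pairs, and for Tnf and several others the DMEM pair of replicate 1 lies well below that of replicate 2.

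Genes of the MAPK and immediate-early list moved both ways. Of 46 tested genes, 5 rose and 8 fell in CM, against 2.47% and 3.56% of all genes tested, and none was called in DMEM. The interaction called 2 higher (4.35%), Rapgef5 and Rasgef1b, and 4 lower (8.7%), Emp1, Etv5, Map3k8 and Spry2. Over all genes tested the shares were 2% and 1.59%. Rasgef1b, an exchange factor for Rap2, had an interaction of 1.39 (adjusted p = 0.020) that was lost in 5 of the 11 omissions. Etv5, a transcription factor induced by ERK, stood at 54.2, 84.5 and 55.6 CPM in CM and at 16.8, 41.1 and 26.7 with ruxolitinib, with an interaction of -1.39 ± 0.26 (adjusted p = 0.0095) called in each omission. The median interaction of the list was -0.21, and it was -0.60 without DMEM replicate 1 and 0.01 without DMEM replicate 2.

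Of 53 tested cytokines, chemokines and growth factors, 13 rose and 9 fell in CM, and 2 fell in DMEM. Among all genes 2.47% rose and 3.56% fell in CM, and 1.24% fell in DMEM. The interaction called 6 higher (11.3%), Ccl22, Csf1, Cx3cl1, Cxcl10, Il18 and Tnf, and 3 lower (5.66%), Ccl6, Pdgfa and Pgf. Over all genes tested the shares were 2% and 1.59%. Csf1 and Pdgfa, a growth factor for mesenchymal cells, were called in each omission. Pdgfa stood at 78.4, 72.3 and 86.2 CPM in CM and at 32.7, 41.6 and 39.6 with ruxolitinib, and at 11.1 and 10.2 CPM in DMEM and 10.5, 12.2 and 11.8 with ruxolitinib, with an interaction of -1.13 ± 0.15 (adjusted p = 0.0012). The median interaction of the list was 0.36, and it was 0.07 without DMEM replicate 1 and 0.60 without DMEM replicate 2.

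The interaction called no gene of the lists for glycolysis and hypoxia (23 tested), sterol and fatty acid synthesis (26) or the cell cycle (38). It called 3.59% of all genes tested, and the median interactions of the 3 lists were -0.16, -0.06 and -0.02. At an unadjusted p under 0.05 and a log2 beyond 0.5, edgeR's interaction marked 1, 2 and 4 genes of the 3 lists, DESeq2 called 1, 0 and 2, and without DMEM replicate 1 edgeR called 1, 1 and 0. Of 18 tested genes of antigen presentation the interaction called Cd40 higher (5.56%) and Cd86 lower (5.56%), against 2% and 1.59% of all genes tested. Neither was called in all omissions. Cd86, a costimulatory ligand, had an interaction of -1.11 ± 0.26 (adjusted p = 0.026), which was lost in 6 of the 11 omissions.

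Of the other genes chosen because the study or earlier work on these counts names them, none had an interaction past both limits. Rela, which encodes the NF-κB subunit p65, stood at 183 and 140 CPM in DMEM and at 145, 137 and 141 with ruxolitinib, and at 204, 187 and 204 CPM in CM and 253, 215 and 226 with ruxolitinib. Its interaction of 0.41 ± 0.09 passed the test (adjusted p = 0.023) but not the log2 limit. Cxcr3, a receptor for interferon-induced chemokines, rose by 1.94 in CM from 0.167, 0.475 and 0.937 CPM to 2.02, 1.74 and 2.24, with an interaction of 1.45 ± 0.40 (adjusted p = 0.063).

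For Has1, Csf2 and Arg1 the interaction could not be read, because each DMEM library was at or under 3 counts. Has1, a hyaluronan synthase, stood at 22.9, 32.4 and 23.5 CPM in CM, at least 214-fold above DMEM, and at 60.8, 63.9 and 56.6 with ruxolitinib, a drug effect of 1.23. Csf2, which encodes GM-CSF, was also at the floor in CM and stood at 0.917, 0.751 and 1.22 CPM in CM with ruxolitinib, at least 5.77-fold higher. Arg1, the arginase of alternatively activated macrophages, fell by 2.29 in CM, from 17.1, 54.1 and 22.2 CPM to 2.24, 15.3 and 4.73. Cish, a feedback inhibitor induced by STAT5, stood at 0.123 to 0.324 CPM in all 5 DMEM libraries and at 136, 147 and 122 CPM in CM and 57.0, 88.0 and 49.2 with ruxolitinib, and its interaction of -2.17 ± 0.91 was not called (adjusted p = 0.26).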

How the data were processed

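Bone marrow-derived macrophages were profiled by stranded, paired-end RNA-seq. The deposited values are raw fragment counts per gene in 1 table of 16 libraries, which the authors made with Trimmomatic 0.33, HISAT2 2.1.0 on GRCm38 and featureCounts 1.6.2, counting by strand, requiring mapping quality 10 or more, and leaving out fragments that map to several places. Of 55487 gene identifiers 55141 had a symbol. All identifiers in the table are genes. Genes over 1 CPM in at least 2 libraries were kept (12372), counts were scaled by relative log expression, and edgeR 4.0.16 in R 4.3.3 (limma 3.58.1) fitted the quasi-likelihood model to all 16 libraries in 6 groups, which share the estimate of spread, with the replicate number as a block. Benjamini-Hochberg adjustment ran over all genes tested. The SE is approximate, being the absolute log2 difference divided by the square root of the F value of the quasi-likelihood test. The intervals were built from this SE. CPM values are scaled by the same factors, and pair effects use log2(CPM + 0.5). The steps were tested on simulated data, and figures were drawn with matplotlib 3.10.9 in Python 3.11.15.

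Replicate numbers come from the labels. Deviations from the group means correlated at 0.159 to 0.756 in all 15 pairs of libraries with equal numbers, so that the numbers were taken to pair the libraries. The 30 pairs with different numbers gave -0.486 to 0.0563. Deviations within a group sum to 0, so that these values follow in part from those of equal numbers and are no separate support. No replicate libraries were alike within sampling noise, the chi-square between them divided by its degrees of freedom being 15.3 or more.

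Named genes were the 10 called genes with the largest interaction in each direction, the 5 with the largest in each class of called genes, the 5 with the largest equal drug effect in both media, the extremes of each gene list with every called member where at most 5 were called, and genes the study or earlier work on these counts names. In the first 2 parts a mean of at least 1 CPM over the 11 libraries and at least 5 CPM in the highest group were required. Others are said to be chosen after their values were seen. The genes, lists and tests were chosen with earlier results of these data known. Alternatives were other scaling, filters, tools (DESeq2 1.42.0 and limma-voom), thresholds, samples in the fit, the fit without the block and the omission of each library, and, added after the data were seen, a separate block for each medium and the sign on the linear CPM scale. Some results are not reported here. A count of 3 per library was the floor for fold bounds. Intervals are 95%.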

Additional observations from a re-analysis of the deposited data

Results flagged for a closer look

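A difference between 2 groups under the same contrast was looked for, here the drug effect in CM against that in DMEM. The test of the difference itself, edgeR's interaction term, called 247 genes higher and 197 lower.

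Among the named genes called by that test, those below had a drug effect of one sign in all 3 CM pairs and of the other sign in both DMEM pairs. Higher in CM were Gbp5 with an interaction of 3.88, Gm19026 with 2.47, Acod1 with 2.47, Mycl with 2.14, Ccl22 with 2.1, Csf1 with 1.93, Tnf with 1.91, Timd4 with 1.87, Rasgef1b with 1.39, Irf1 with 1.30, the prostaglandin E synthase gene Ptges with 1.28 and the receptor gene Gpr18 with 1.13. Lower in CM were Acat3 with -3.92, Plekhf1 with -2.42, Gpr35 with -2.17, Il1rn with -1.45 and Cd86 with -1.11. Some of the DMEM effects were small. The DMEM pairs gave 0.02 and 0.10 for Cd86, and pair 2 gave -0.13 for Gm19026 and 0.04 for Plekhf1. Acat3 was at the floor in untreated DMEM. Of these genes only Timd4 had its drug effect called in both media, so that the signs alone do not show a reversal. The share of all genes with such signs was not counted. Gbp5, Csf1, Timd4, Plekhf1, Gpr35 and Il1rn were called in each of the 11 fits without 1 library. Without DMEM replicate 1 the calls of Gm19026, Acod1, Mycl, Ccl22, Tnf, Irf1, Ptges, Gpr18 and Cd86 were lost. The value was then 0.78 for Ptges and 0.64 for Gpr18. No group held 4 or more libraries, so that the check for a single library far from the others of its group, which needs 4, was not run.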

How the results depend on the processing

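All 444 genes called by the interaction kept their log2 sign in each other fit that tested them, except 1 gene without DMEM replicate 1. That gene was Adora2a, an adenosine receptor gene, at 2.06 with all libraries, at -0.0596 (adjusted p = 0.98) without that library and at up to 2.76 without another. Of the 442 genes called with TMM scaling 432 were among the 444, and of the 570 called by DESeq2 433. Without the replicate block 29 genes were called higher and 22 lower by the interaction, 149 rose and 263 fell in CM and 0 rose in DMEM. With only the 11 libraries and no block these counts were 20, 17, 143, 247 and 0. With only the 11 libraries and the block kept, the interaction called 329 genes, 309 of them among the 444. In that fit 11 of the 43 named genes called lost their call. With no filter on low counts 383 were called higher, and 4 rose in DMEM, and limma-voom called 0 there. At an unadjusted p under 0.05 the interaction called 561 higher and 424 lower, and in DMEM 65 rose and 292 fell. With no log2 limit 662 rose and 823 fell in CM and 2 rose in DMEM, and with a limit of 1 the counts were 95 and 79 for the interaction, 89 and 190 in CM and 0 that rose in DMEM. Omitting 1 library gave 140 to 333 higher and 133 to 326 lower by the interaction, 203 to 322 up and 339 to 457 down in CM, and 0 to 20 up and 132 to 219 down in DMEM. Of the 43 named genes called by the interaction, 20 were called in every omission and 10 without the block. Where a count or call changed, the cause was not tested.

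With 2 untreated DMEM libraries, no repeat of the drug-free DMEM level beyond these was to be had, and omitting either assumes that the other varies like the remaining groups. The pair effects in DMEM rest on 2 pairs. Genes near the floor of 3 counts in DMEM have interactions that depend on the prior count of the fit.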

Other observations

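Several receptor and metal-binding genes outside the lists, chosen after their values were seen, also fell only in CM. Fcgr2b, the inhibitory receptor for IgG, stood at 59.2 and 63.8 CPM in DMEM and at 56.6, 68.3 and 90.0 with ruxolitinib, and at 625, 763 and 773 CPM in CM and 195, 245 and 368 with ruxolitinib. Its interaction was -1.45 ± 0.20 (adjusted p = 0.0014). Fcgr3, an activating receptor for IgG, stood at 211 and 251 CPM in DMEM and at 248, 238 and 331 with ruxolitinib, and at 735, 1017 and 680 CPM in CM and 235, 433 and 312 with ruxolitinib, so that the CM level with the drug overlapped that of DMEM. Its interaction was -1.56 ± 0.25 (adjusted p = 0.0038). Mt1, a metallothionein, stood at 38.6 and 50.4 CPM in DMEM and at 49.4, 54.0 and 60.6 with ruxolitinib, and at 209, 316 and 188 CPM in CM and 64.8, 82.7 and 66.9 with ruxolitinib, with an interaction of -2.03 ± 0.23 (adjusted p = 0.00055). The chemokine receptor gene Ccr2 had an interaction of -0.88. All 4 were called in every fit without 1 library.

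Cav1, which encodes the membrane protein caveolin-1, rose only in CM, from 61.9, 54.5 and 111 CPM to 209, 163 and 265 with ruxolitinib, and stood at 29.9 and 21.7 CPM in DMEM and at 21.3, 27.1 and 18.0 with ruxolitinib. Its interaction was 1.82 ± 0.33 (adjusted p = 0.0070). Cav2, its partner in the membrane, had an interaction of 0.71 ± 0.11 (adjusted p = 0.0024). Icosl, the ligand of the T cell receptor ICOS, stood at 145 and 62.3 CPM in DMEM and at 59.6, 56.1 and 74.1 with ruxolitinib, and at 239, 180 and 277 CPM in CM and 504, 418 and 540 with ruxolitinib, with an interaction of 1.85 ± 0.25 (adjusted p = 0.0014). Itga4, an integrin chain, was lower in CM than in DMEM at 145, 161 and 196 against 357 and 374 CPM, and with ruxolitinib in CM stood at 267, 273 and 315. Its interaction was 1.21 ± 0.19 (adjusted p = 0.0036). All 4 were chosen after their values were seen and were called in every fit without 1 library.

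Gm5431 was the single gene that fell in both media and further in CM. It stood at 38.8 and 68.7 CPM in DMEM and at 21.8, 26.0 and 19.4 with ruxolitinib, and at 4.95, 9.51 and 6.15 CPM in CM and 0.512, 1.09 and 1.07 with ruxolitinib. The drug effect was -1.23 in DMEM and -2.99 in CM, with an interaction of -1.77 ± 0.32 (adjusted p = 0.0071). On the linear CPM scale the larger drop was that in DMEM, and the sign on that scale differed from the log2 sign for 5 of the 247 genes called higher and 2 of the 197 called lower.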
